A study of Mus musculus with 6 samples.

Results

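Potassium channel genes were compared in RNA of brain cortex from C57BL/6 mice with an experimental stroke, made by blocking the middle cerebral artery (MCAO). The members are the rows of the deposited count table whose symbol starts with Kcn, apart from Kcnj8, Kcnj10 and Kcnq1ot1, with 10 or more counts in at least 3 of the 6 libraries. Of 98 such symbols among the 24421 of the table, 95 remained after those 3 were set aside, 77 reached the count minimum, and all of these 77 were tested. The GFP group holds 3 samples from mice given green fluorescent protein after MCAO, and the NeuroD1 group 3 samples from mice given NeuroD1, a proneural transcription factor. Both groups carried the stroke, and no uninjured group was analysed here. The series title names an intravenous gene therapy, while the sources used here do not give the vector, its promoter, the time after stroke, or the age and sex of the mice. Nothing in the labels says that the numbered samples came from different mice, so the p-values rest on a spread that may be technical in part.

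Potassium channels let potassium leave or enter the cell along its gradient, and so set the resting potential and end the action potential. Pore-forming genes encode voltage-gated (Kv), calcium- or sodium-activated, inwardly rectifying (Kir) and two-pore-domain (K2P) channels. Auxiliary genes encode partners that change the gating or surface level of a pore. In cortex, most of these channels shape the firing of neurons, while some Kir and K2P channels work in glia, and Kv1.3 and KCa3.1 (genes Kcna3 and Kcnn4) are known from microglia and T cells.

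What the pore-forming members share is the selectivity filter, a short loop of residues that lines the narrowest part of the pore. It is shown for 4 members whose values are described below, to show how alike the coding bases are across branches of the family. The 15 bases in capitals code for the 5 residues of the filter, and each stretch of 27 bases lies within 1 exon of the GENCODE M21 annotation (GRCm38).
Kcna3: atgacaACTGTTGGTTATGGTgatatg
Kcnh4: ctcaccAGTGTAGGCTTCGGCaacgtg
Kcnt1: ttctcaACTGTGGGCTTCGGTgatgtg
Kcnj6: gaaaccACCATCGGTTATGGCtaccgg
These stretches lie at chr3:107037605-107037631 (plus strand, exon 1) for Kcna3 and chr11:100750287-100750313 (minus, exon 8) for Kcnh4. Those of the others lie at chr2:25894361-25894387 (plus, exon 11) for Kcnt1 and chr16:94832771-94832797 (minus, exon 3) for Kcnj6. The fourth capital triplet codes for tyrosine in Kcna3 and Kcnj6 and for phenylalanine in Kcnh4 and Kcnt1. A translated search for the filter matched all 56 pore-forming members and all 8 silent Kv subunits, and none of the 12 auxiliary ones. All 10 K2P members had 2 matches, 1 for each pore domain, and all 7 members of the EAG, ERG and ELK branch had phenylalanine at that position.

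The libraries held 7753101 to 9698795 counts in the GFP group and 10843273 to 13440244 in the NeuroD1 group, so every NeuroD1 library was deeper. Levels are CPM, counts divided by library size after TMM scaling, in which 1 count is worth 0.0753 to 0.134 CPM. All 12 neuron markers on a list were detected in every library, and their summed level ran from 3180 to 5780 CPM with GFP and from 2200 to 6640 CPM with NeuroD1. Neurod1, the delivered gene, had 6.48, 3.87 and 5.43 CPM with GFP and 48.5, 14.6 and 38.4 CPM with NeuroD1, higher in all 3 NeuroD1 libraries, and these counts do not separate vector from endogenous RNA. NeuroD1 replicate 2 held the least Neurod1 of its group and the least of the neuron markers of all libraries. For many members the value without this library is given too, but not for all.

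The potassium channel genes had nearly as many lower as higher values, and by edgeR no member passed the adjusted threshold. Of the 77 members, 39 had higher and 38 lower fitted levels with NeuroD1, with a median log2 fold change of 0.05 beside 0.02 over all 14852 tested genes. By edgeR's quasi-likelihood test 0 members passed a Benjamini-Hochberg adjusted p of 0.05, against 0.0% of all genes, and the smallest adjusted p of a member was 0.136. With an unadjusted edgeR p under 0.05, 12 members differed (15.6% against 24.0% of all genes), 7 being lower and 5 higher, or 9.09% and 6.49% against 11.5% and 12.5% of all genes. The 3 NeuroD1 values lay all below the 3 GFP values in 6 members and all above them in 5, against 15.3% and 14.2% of all genes. DESeq2 called 4 members, Kcnh4 and Kcnt1 lower and Kcna3 and Kcnn4 higher (adjusted p = 1.66e-06, 0.0371, 0.000861 and 0.035), or 5.19% against 8.63% of all genes (3.76% lower and 4.87% higher). limma-voom called 0, against 0.0%.

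The lower and upper quartiles of the members were log2 fold changes of -0.48 and 0.63, against -0.37 and 0.43 for all genes. Fitted changes beyond 2-fold were found in 10 members higher and 5 lower, or 13.0% and 6.49%, against 7.0% and 5.93% of all genes.

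**Figure D1:**
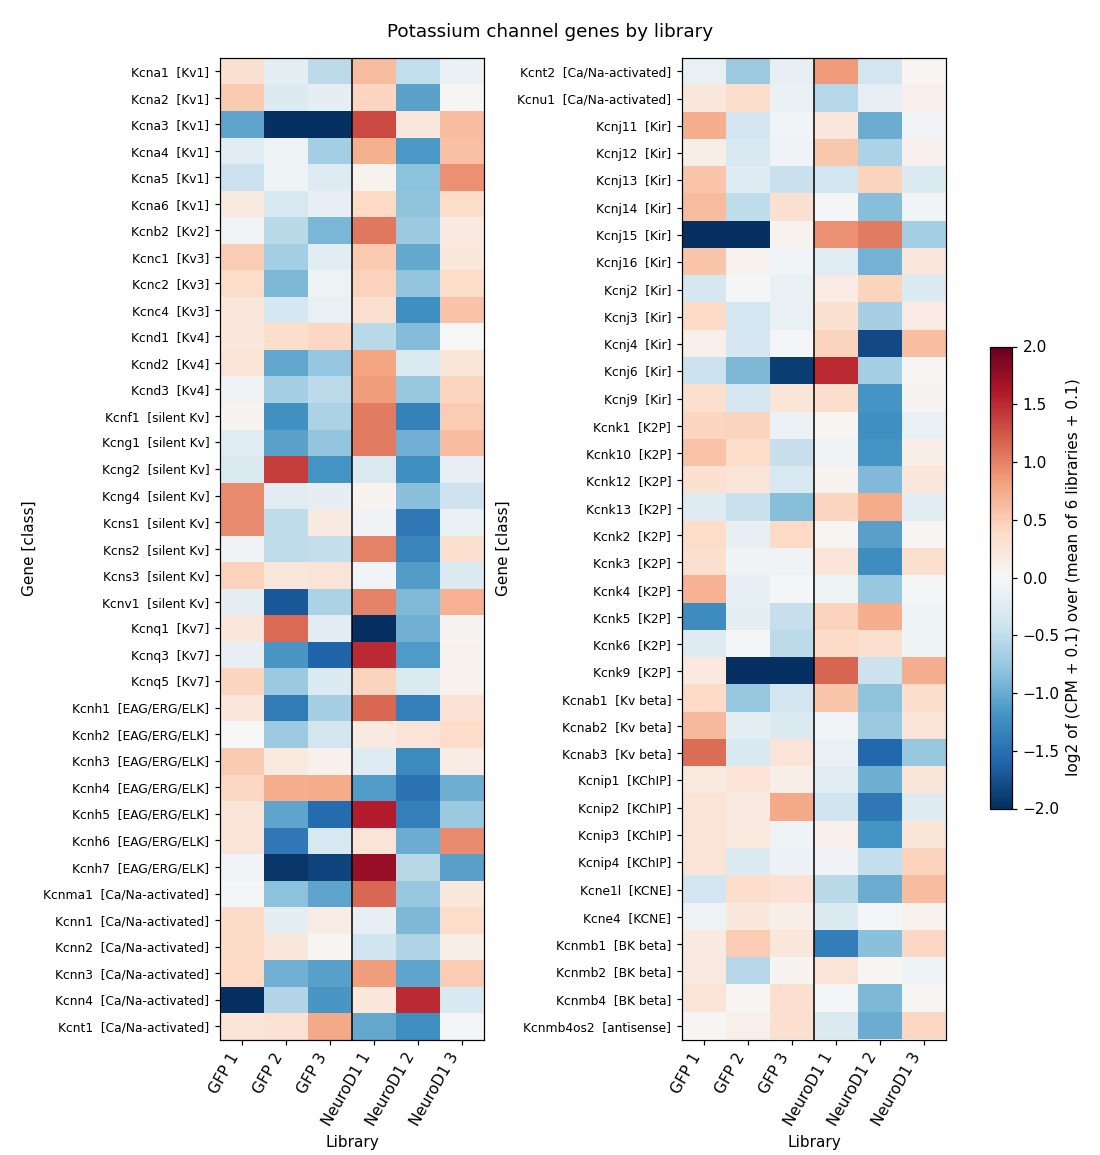
Level of 73 of the 77 potassium channel genes (rows, grouped by class) in the 6 libraries (columns), as log2 of CPM plus 0.1 over the mean of the 6 libraries plus 0.1; blue is below and red above that mean. The column of NeuroD1 replicate 2 is blue for most genes, with Kcnn4, Kcnk13, Kcnk5 and Kcnj15 among the exceptions.

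**Figure D2:**
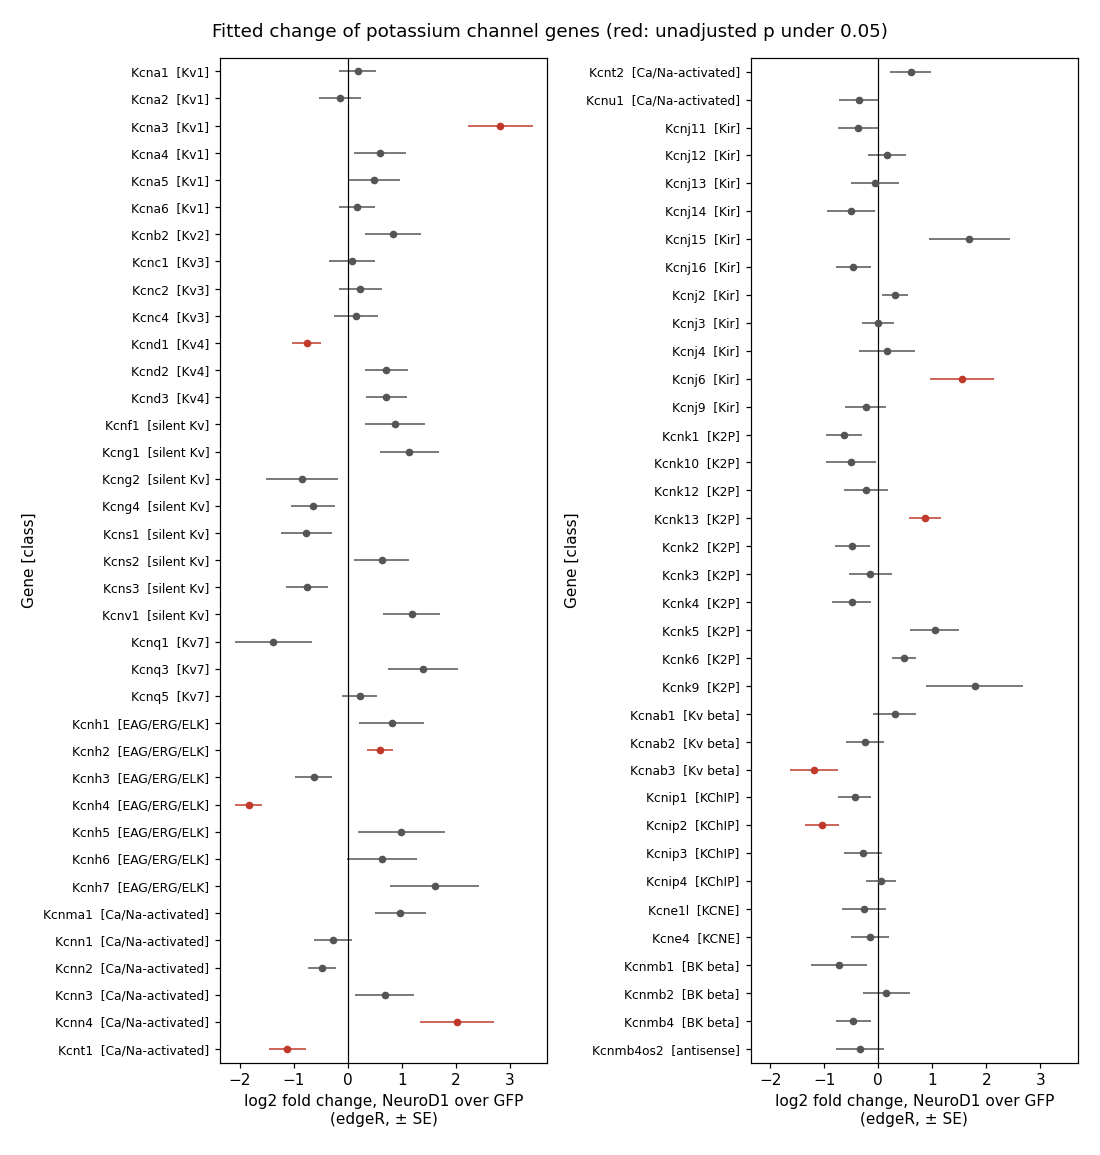
Fitted log2 fold change of NeuroD1 over GFP from edgeR for 73 of the 77 members (points), with bars of 1 standard error; red points have an unadjusted p under 0.05. The points lie on both sides of 0 in most classes, from Kcnh4 at -1.83 to Kcna3 at 2.82.

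The NeuroD1 libraries differed among themselves in these genes. NeuroD1 replicate 2 had the lowest value of all 6 libraries in 46 of the 77 members, while among all tested genes it was lowest in 22.4%. Its median member stood at -0.87 on the log2 scale relative to the GFP mean, whereas NeuroD1 replicates 1 and 3 stood at 0.31 and 0.17. GFP replicates 1, 2 and 3 stood at 0.29, -0.26 and -0.14. The summed level of the 77 members was 3699, 2480 and 2690 CPM in GFP replicates 1, 2 and 3 and 3543, 1589 and 3186 CPM in the NeuroD1 replicates, so the groups overlapped. Summed neuron markers were 5780, 3177 and 4478 CPM with GFP and 5377, 2204 and 6639 CPM with NeuroD1, lowest in the same library. In bulk tissue, fewer neurons and less channel RNA per neuron cannot be told apart, and the part of neuron content in these values was not tested. The same library also had the lowest sum of 8 astrocyte markers and the highest sums of 5 fibroblast and 10 microglia and macrophage markers. Astrocyte markers summed to 9480 to 15600 CPM with GFP and 5560 to 10200 CPM with NeuroD1, with a median log2 fold change of -0.43. Of the 8, 3 were lower and 0 higher at an unadjusted edgeR p under 0.05 (against 11.5% and 12.5% of all genes). The 6 pericyte and smooth muscle markers summed to 260 to 385 CPM with GFP and 170 to 363 CPM with NeuroD1. Their median was -0.88, and 3 were lower and 0 higher at that threshold. Fibroblast markers summed to 678 to 1450 CPM with GFP and 1290 to 5510 CPM with NeuroD1. All 5 were higher at an unadjusted edgeR p under 0.05, beside 12.5% of all genes. Other lists had lower sums in every NeuroD1 library than in any GFP library. The 7 endothelial markers summed to 476 to 685 CPM with GFP and 184 to 374 CPM with NeuroD1. The 6 oligodendrocyte markers summed to 10500 to 20600 against 6680 to 9180 CPM. Of these lists, 5 endothelial and 3 oligodendrocyte markers were lower at an unadjusted edgeR p under 0.05, beside 11.5% of all genes. The part of these cell types in the channel values was not tested.

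Leaving out NeuroD1 replicate 2 changed the balance of the counts. This library had the lowest value in 46 of the 77 members. Higher fitted values without it thus follow largely from leaving it out, and the counts are not a test of the family. Without NeuroD1 replicate 2, 23 members had an unadjusted edgeR p under 0.05 (29.9% against 24.1% of all genes). Of these 20 were higher and 3 lower (26.0% and 3.9%, against 12.2% and 11.9% of all genes), and 0 members passed after adjustment, against 0.00662% of all genes. Examples chosen after their values were seen are Kcnma1, the large-conductance calcium-activated channel, at 2.5-fold higher, and Kcnd3, a Kv4 channel, at 2.06-fold. With all libraries these were 1.95-fold and 1.63-fold higher, and without NeuroD1 replicate 1 Kcnma1 was 1.30-fold higher. Other libraries moved the counts of 7 lower and 5 higher too, and the shares of all genes with them. Without NeuroD1 replicate 3 there were 11 lower and 8 higher members, against 13.6% and 15.3% of all genes. Without GFP replicate 1 there were 4 lower and 12 higher, against 13.7% and 14.2% of all genes. Without GFP replicate 3 there were 4 lower and 3 higher, against 6.4% and 6.13% of all genes, and without NeuroD1 replicate 1 there were 7 lower and 3 higher, against 5.56% and 7.79%.

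**Figure D3:**
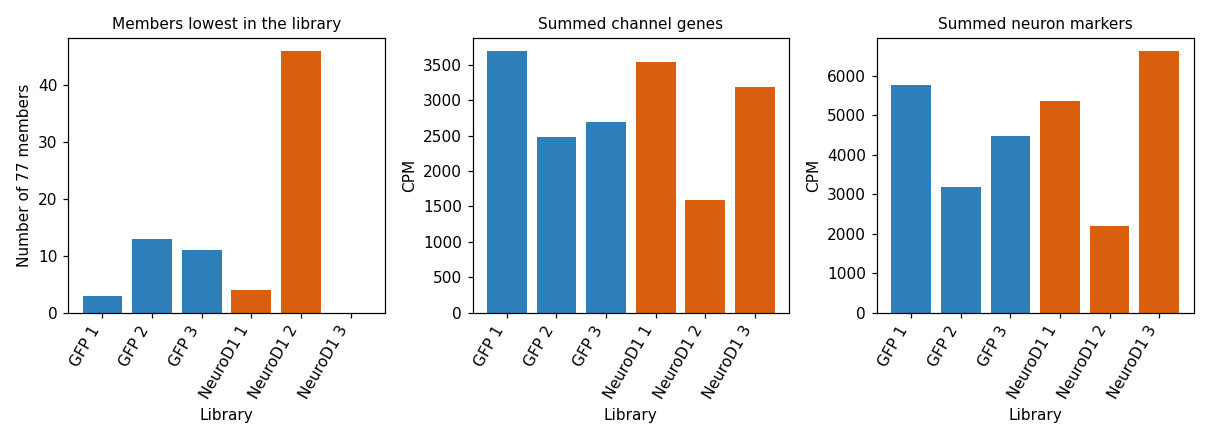
For each library (x axis), the number of the 77 members that have their lowest value there (left), the summed CPM of the 77 members (middle) and the summed CPM of 12 neuron markers (right); blue bars are GFP and orange bars NeuroD1. NeuroD1 replicate 2 holds the lowest value of 46 members and the lowest sums in the middle and right panels, 1589 and 2204 CPM.

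Among the classical voltage-gated pores, the low-level gene Kcna3 stood apart from the abundant neuronal Kv1 genes. Kcna3 lies on chromosome 3 (107036169 to 107038070, plus strand). It was read 18, 5 and 3 times in the GFP libraries and 131, 47 and 67 times with NeuroD1. It passed the count rule through the NeuroD1 group, with 10 or more counts in only 1 GFP library. Its levels were 1.82, 0.668 and 0.326 CPM with GFP and 9.87, 4.55 and 6.01 CPM with NeuroD1, so every NeuroD1 library lay above every GFP library. The fitted level was 7.06-fold higher with NeuroD1 (log2 fold change 2.82, SE 0.60, edgeR adjusted p = 0.136), and 8.23-fold without NeuroD1 replicate 2. Without GFP replicate 1 the log2 fold change was 3.76. Kcna1 and Kcna2, which form the delayed rectifiers of myelinated axons, showed no such separation. Kcna1 had 177, 127 and 99.9 CPM with GFP and 223, 102 and 131 CPM with NeuroD1 (log2 fold change 0.18, SE 0.34). Kcna2 had 206, 119 and 127 against 194, 68.4 and 145 CPM (-0.15, SE 0.39, and 0.17 without NeuroD1 replicate 2). The other 3 tested Kv1 members, Kcna4, Kcna5 and Kcna6, had log2 fold changes of 0.59, 0.49 and 0.17, and their groups overlapped.

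The Kv3 genes encode channels of fast-spiking cells. Kcnc1, Kcnc2 and Kcnc4 stood at log2 fold changes of 0.08, 0.23 and 0.15, with overlapping groups. Pvalb, the marker of fast-spiking interneurons, had 54.9, 38.1 and 44.7 CPM with GFP and 21.5, 40.4 and 25 CPM with NeuroD1, so its groups overlapped. It is 1 of the 12 neuron markers on the list, whose median log2 fold change was 0.17. Of these, 1 was higher and 1 lower at an unadjusted edgeR p under 0.05 (against 12.5% and 11.5% of all genes). The part of fast-spiking cells in the Kv3 values was not tested.

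The Kv4 genes encode the A-type current of dendrites, and their paralogs stood on both sides of 0. Kcnd1 had 16.5, 18.3 and 19.1 CPM with GFP and 9.79, 7.74 and 14.2 CPM with NeuroD1, with no overlap of the groups. This was 1.70-fold lower (log2 fold change -0.76, SE 0.27, edgeR adjusted p = 0.161; 1.5-fold without NeuroD1 replicate 2). Kcnd2 and Kcnd3 were each at a log2 fold change of 0.71 (SE 0.40 and 0.38), and the groups overlapped in both. Kcnb2, a Kv2 delayed rectifier, had a log2 fold change of 0.84 (SE 0.52, edgeR adjusted p = 0.338).

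Silent Kv subunits form no channel alone and modify Kv2 channels. Of their 8 tested members 4 had higher and 4 lower fitted levels, and 0 had an unadjusted edgeR p under 0.05 (against 24.0% of all genes). Kcnv1 had 20.6, 7.08 and 14.9 CPM with GFP and 46.5, 12.5 and 37.8 CPM with NeuroD1, where only NeuroD1 replicate 2 fell within the GFP range (2.27-fold higher, edgeR adjusted p = 0.208, and 2.96-fold without that library). Kcns3 ran the other way with 4.25, 3.61 and 3.69 against 2.94, 1.35 and 2.51 CPM. It was 1.69-fold lower (edgeR adjusted p = 0.262), and 1.41-fold lower without NeuroD1 replicate 2. Kcnf1 and Kcng1 were at log2 fold changes of 0.87 and 1.14, and Kcns1, Kcns2, Kcng2 and Kcng4 at -0.77, 0.63, -0.85 and -0.64. Kcng2 had 2.13, 6.95 and 1.09 CPM with GFP, and without GFP replicate 2 its direction turned to 1.14-fold higher.

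The Kv7 genes encode the M-current, a brake on repetitive firing, and their members gave values in both directions. Kcnq3, a subunit of this current, had 10.5, 5.21 and 3.80 CPM with GFP and 33.4, 5.32 and 12.4 CPM with NeuroD1, so that NeuroD1 replicate 1 alone carried the highest value. Kcnq3 was 2.61-fold higher (edgeR adjusted p = 0.232), with a log2 fold change of 0.44 without NeuroD1 replicate 1 and 1.81 without NeuroD1 replicate 2.

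Kcnq1, a heart and epithelial channel at 8 to 18 counts with GFP and 2 to 12 with NeuroD1, was 2.60-fold lower (edgeR adjusted p = 0.265), and its log2 fold change was -2.22 without NeuroD1 replicate 3. Exons of Kcnq1 overlap the antisense RNA Kcnq1ot1, which was itself at 27.6, 55.0 and 52.5 CPM with GFP and 6.40, 21.9 and 13.6 CPM with NeuroD1. Without a stated strand setting, their reads cannot be told apart. Kcnq5 was at a log2 fold change of 0.22.

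The smallest p of the family was that of Kcnh4, a voltage-gated channel of the ELK type. Kcnh4 (chromosome 11, 100740376 to 100759942, minus strand) was read 156, 147 and 182 times in the GFP libraries and 71, 43 and 66 times in the deeper NeuroD1 libraries. Its levels were 15.8, 19.6 and 19.8 CPM with GFP and 5.35, 4.16 and 5.92 CPM with NeuroD1, and the groups did not overlap. It was 3.57-fold lower (log2 fold change -1.83, SE 0.25, edgeR adjusted p = 0.136), and 3.25-fold lower without NeuroD1 replicate 2. Leaving out any 1 library gave log2 fold changes from -1.95 to -1.70. Kcnh4 is also known from striatum. The 6 striatal markers on a list summed to 128 to 173 CPM with GFP and 71.3 to 181 CPM with NeuroD1. Of the 6, 0 had an unadjusted edgeR p under 0.05, which with 3 libraries per group does not show equal levels. The part of striatal tissue in the Kcnh4 values was not tested.

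Values of the other members of that branch lay on both sides of 0. Kcnh3, the other ELK gene tested, had 122, 97.9 and 90.1 CPM with GFP and 71.5, 35.0 and 93.9 CPM with NeuroD1. Its log2 fold change was -0.63 (SE 0.34, edgeR adjusted p = 0.285), and -0.31 without NeuroD1 replicate 2. Kcnh2, which encodes the ERG channel known from the heart, had 24.5, 14.8 and 18.9 against 27.6, 29.4 and 31.6 CPM, without overlap. It was 1.52-fold higher (log2 fold change 0.60, SE 0.24, edgeR adjusted p = 0.18), and also 1.52-fold without NeuroD1 replicate 2. Kcnh1, Kcnh5, Kcnh6 and Kcnh7 had log2 fold changes of 0.81, 0.99, 0.63 and 1.61 with standard errors of 0.60 to 0.82. Without NeuroD1 replicate 1, Kcnh1 and Kcnh7 were 1.12-fold and 1.15-fold higher and Kcnh5 was 1.38-fold lower. Without GFP replicate 1, Kcnh5 and Kcnh7 were 3.29-fold and 5.81-fold higher.

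Among channels opened by intracellular ions, the sodium-activated Kcnt1 was lower and the calcium-activated Kcnn4 higher. Kcnt1 (chromosome 2, 25863734 to 25918273, plus strand) is the SLACK channel that follows bursts of firing. It had 161, 165 and 230 CPM with GFP and 66.8, 58.0 and 131 CPM with NeuroD1, so NeuroD1 replicate 3 came nearest to the GFP libraries without reaching them. It was 2.18-fold lower (log2 fold change -1.12, SE 0.34, edgeR adjusted p = 0.141; 1.87-fold without NeuroD1 replicate 2). Its paralog Kcnt2, at 6.58, 4.41 and 6.52 against 13.4, 5.61 and 7.54 CPM, had a log2 fold change of 0.60 (SE 0.38). Kcnma1 had 35.5, 20.3 and 17.2 against 79.8, 21.2 and 41.7 CPM (0.97, SE 0.47, edgeR adjusted p = 0.245), with NeuroD1 replicate 1 the highest. The small-conductance genes Kcnn1, Kcnn2 and Kcnn3 stood at -0.28, -0.48 and 0.68, and Kcnu1, known from sperm, at -0.36. Without GFP replicate 1 Kcnn3 was 2.51-fold higher, against 1.60-fold with all libraries.

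Inward rectifiers hold cells near the potassium equilibrium potential. Of their 11 tested members, 10 had an unadjusted edgeR p above 0.05 and 1 a p under it (9.09%, against 24.0% of all genes). The exception was Kcnj6, a G protein-gated (GIRK) subunit of neurons. It had 8.0, 5.74 and 2.83 CPM with GFP and 30.6, 6.77 and 11 CPM with NeuroD1, with NeuroD1 replicate 2 inside the GFP range. It was 2.92-fold higher (log2 fold change 1.55, SE 0.59, edgeR adjusted p = 0.176), 3.78-fold without NeuroD1 replicate 2, and at a log2 fold change of 0.69 without NeuroD1 replicate 1. The other GIRK subunits Kcnj3 and Kcnj9 stood at -0.01 and -0.23, and at 0.24 and 0.11 without NeuroD1 replicate 2. Kcnj15 had 0.81, 0.534 and 4.02 against 7.23, 7.93 and 2.33 CPM (3.21-fold higher, edgeR adjusted p = 0.213), with a log2 fold change of 3.08 without GFP replicate 3. Kcnj16, a partner of Kcnj10 in astrocytes, was at -0.46, and Kcnj4, Kcnj11, Kcnj12, Kcnj13 and Kcnj14 at 0.16, -0.37, 0.16, -0.06 and -0.51.

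The K2P channels carry background leak current, and 6 of their 10 tested members had lower fitted values, against 4 of 10 without NeuroD1 replicate 2, where the median moved from -0.19 to 0.13. Kcnk1, the member with the highest level per length in this class, had 88.7, 89.6 and 60.8 CPM with GFP and 67.6, 28 and 59.2 CPM with NeuroD1 (1.54-fold lower, edgeR adjusted p = 0.276; 1.25-fold without NeuroD1 replicate 2). Kcnk2, Kcnk3, Kcnk4, Kcnk10 and Kcnk12 lay between -0.15 and -0.50, and of these Kcnk3 and Kcnk12 had values above 0 (0.21 and 0.04) without that library. Kcnk5, at 0.709, 1.60 and 1.30 against 2.56, 3.10 and 1.71 CPM, did not overlap between the groups (2.05-fold higher, edgeR adjusted p = 0.213). Kcnk9 was at 1.78 (SE 0.90), with 39 counts in GFP replicate 1 and 1 and 4 in the other GFP libraries, and at 4.12 without GFP replicate 1.

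A list of 5 channels known from microglia and macrophages, Kcna3, Kcnj2, Kcnk6, Kcnk13 and Kcnn4, had fitted values above 0 throughout, with a median log2 fold change of 0.86. Of the 5, 3 were higher at an unadjusted edgeR p under 0.05, beside 12.5% of all genes. The list was chosen with earlier results of these data known, so that share is not a test of the list. Kcna3, 1 of these 3, had 10 or more counts in 1 GFP library and in 3 NeuroD1 libraries. It was thus a member through the group where it is high. Kcnn4 (chromosome 7, 24370263 to 24386690) had 1.01, 7.48 and 5.0 CPM with GFP and 13.1, 32.0 and 9.07 CPM with NeuroD1, every NeuroD1 value being above the highest GFP value. It was 4.06-fold higher (log2 fold change 2.02, SE 0.69, edgeR adjusted p = 0.153; 2.51-fold without NeuroD1 replicate 2, its highest library). Kcnk13 (chromosome 12, 99964499 to 100062682), the leak channel THIK-1 of microglia, had 16.8, 14.7 and 11.1 against 26.9, 33.6 and 17.1 CPM. NeuroD1 replicate 3 lay only just above GFP replicate 1, and the fold was 1.82 (log2 fold change 0.86, SE 0.30, edgeR adjusted p = 0.155; 1.56-fold without NeuroD1 replicate 2). Kcnk6, a macrophage leak channel, had 33.7, 39.3 and 28.1 against 52.6, 50.4 and 38.1 CPM (1.40-fold higher, edgeR adjusted p = 0.217). Kcnj2, the classical strong inward rectifier, had 21.7, 27.1 and 25.2 against 30.7, 37.6 and 22.8 CPM (log2 fold change 0.30, SE 0.24), with overlapping groups and a value of -0.06 with offsets for length and GC content.

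Markers of the cells that these channels are known from also differed between libraries. Of 10 microglia and macrophage markers, all detected in every library, 3 were higher at an unadjusted edgeR p under 0.05 and 0 lower. The shares of all genes were 12.5% higher and 11.5% lower. Their sum was 4680 to 5580 CPM with GFP and 4970 to 9370 CPM with NeuroD1. Ptprc, the pan-leukocyte marker, had 45.7, 56.9 and 59.4 against 127, 153 and 80.1 CPM, while the microglial markers Tmem119 and P2ry12 stood at log2 fold changes of 0.04 and 0.14. The 5 T cell markers summed to 0.304 to 5.98 CPM with GFP and 5.23 to 13.0 CPM with NeuroD1, and Cd3d, Cd3g and Cd8a were each at 0 in 1 library. The part of either cell type in the channel values was not tested.

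Of 12 auxiliary subunits, 9 had lower fitted values, with a median log2 fold change of -0.27, and NeuroD1 replicate 2 was the lowest library in 9. Without it, 7 of 12 were lower and the median was -0.09. With all libraries, 2 of 12 (16.7%, against 24.0% of all genes) had an unadjusted edgeR p under 0.05. Kcnip2 (chromosome 19, 45791839 to 45816061), a calcium-binding partner of Kv4 channels, had 80.7, 75.7 and 114 CPM with GFP and 50.8, 24.9 and 56.2 CPM with NeuroD1, without overlap. It was 2.05-fold lower (log2 fold change -1.04, SE 0.32, edgeR adjusted p = 0.141; 1.68-fold without NeuroD1 replicate 2). The other Kv4 partners Kcnip1, Kcnip3 and Kcnip4 stood at -0.44, -0.29 and 0.05, and at -0.17, 0.05 and 0.25 without NeuroD1 replicate 2. Kcnab3, a Kv beta subunit, had 95.7, 35.9 and 52.9 against 40.1, 14.8 and 26.1 CPM, with NeuroD1 replicate 1 inside the GFP range. This was 2.27-fold lower (log2 fold change -1.19, SE 0.44, edgeR adjusted p = 0.168). It was 1.85-fold lower without NeuroD1 replicate 2 and 1.66-fold lower without GFP replicate 1. An antisense gene, Kcnab3os, overlaps the exons of Kcnab3.

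Kcnab2, a Kv beta subunit of axonal Kv1 channels, had the highest level of the family per length, 61.6 CPM per kilobase of exon with GFP and 52.1 with NeuroD1. It had 495, 278 and 259 against 305, 189 and 378 CPM (log2 fold change -0.24, SE 0.35). Next per length with GFP came Kcnk1 at 35.7, Kcnip3 at 35.4 and Kcna1 at 28.1 CPM per kilobase. Kcnab1 was at a log2 fold change of 0.30. The BK channel subunits Kcnmb1, Kcnmb2 and Kcnmb4 stood at -0.73, 0.15 and -0.46, and Kcnmb1 moved from 1.66-fold to 2.76-fold lower without NeuroD1 replicate 3. For Kcnmb4 the values were 8.30, 7.08 and 8.80 against 6.78, 3.68 and 7.09 CPM (edgeR adjusted p = 0.394). Without NeuroD1 replicate 2 Kcnmb4 was at -0.21. Its antisense transcript Kcnmb4os2 was at -0.34 with all libraries. Of the KCNE genes, Kcne4 was at -0.16 and Kcne1l had 23.9, 39.5 and 38.1 against 21.4, 15.6 and 47.8 CPM (-0.26, SE 0.41), a value of -0.86 without NeuroD1 replicate 3, whose sign changed to 0.03 without NeuroD1 replicate 2 and to 0.11 with offsets for length and GC content.

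**Figure D4:**
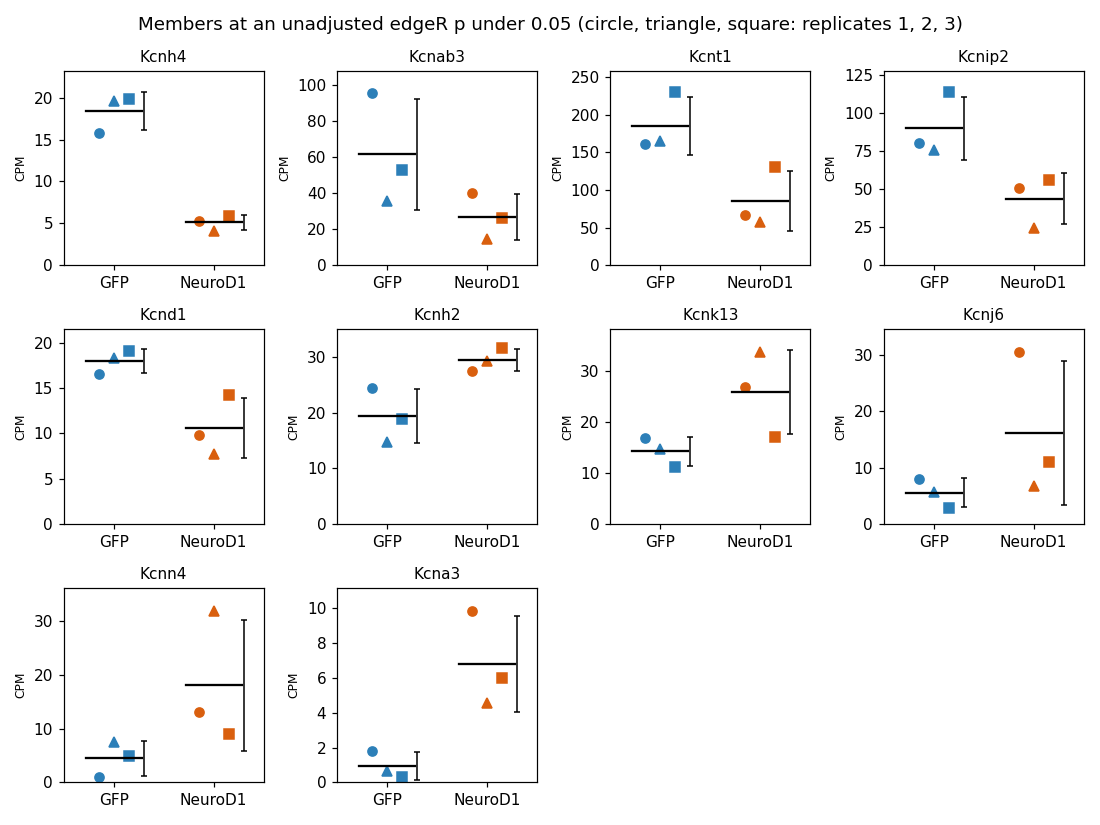
CPM (y axis, from 0) of 10 members with an unadjusted edgeR p under 0.05 in the GFP (blue) and NeuroD1 (orange) libraries; each point is 1 library, horizontal lines are means and vertical bars standard deviations. The Kcnh4 groups lie at 15.8 to 19.8 CPM against 4.16 to 5.92, while the groups of Kcnab3 and Kcnj6 overlap.

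At the low end of the count rule, Kcnq1 was just inside with 12, 18 and 8 counts with GFP and 2, 5 and 12 with NeuroD1, and Kcne2 was just outside with 10, 16 and 6 counts in the GFP and 0, 3 and 5 in the NeuroD1 libraries. In 5 members (Kcna3, Kcnj15, Kcnk9, Kcnh6 and Kcnq1) 1 group reached 10 counts in fewer than 2 of its libraries, and so their presence among the members leaned on the other group. The 18 symbols below the rule had at most 25 counts in any library. These were Kcne2, Kcne1, Kcne3, Kcnh8, Kcng3, Kcnv2, Kcna7, Kcna10, Kcnj1, Kcnj5, Kcnk7, Kcnk15, Kcnk16, Kcnk18, Kcnmb3, Kcnmb4os1, Kcnd3os and Kcnrg. Kcnk16 and Kcnj1 had 0 counts in every library, which allows up to 3 counts in each.

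The direction of a member's value went with the base composition and length of its transcript, as it did for genes at large. Across the 77 members, Spearman's rho between the log2 fold change and the GC content of the longest transcript was -0.35, and with the summed exon length 0.32, against -0.31 and 0.25 across 14769 genes. These are descriptions over genes that share the same 6 libraries, not independent observations. In the 26 members with the highest GC content (56.9% to 69.4%) the median log2 fold change was -0.27 and 18 were lower. In the 26 with the lowest (36.6% to 48.2%) it was 0.27 and 17 were higher. With offsets for both properties, 12 members had an unadjusted edgeR p under 0.05 (15.6% against 22.6% of all genes). Of these 4 were lower and 8 higher (5.19% and 10.4%, against 11.5% and 11.1% of all genes), and 0 passed after adjustment, against 0.0% of all genes. Kcnh4, Kcnt1, Kcnip2 and Kcnd1 were then lower, with log2 fold changes of -1.58, -1.14, -0.84 and -0.73, whereas Kcnab3, at -1.02, no longer had an unadjusted p under 0.05. The part of composition in the values without offsets was not tested further.

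**Figure D5:**
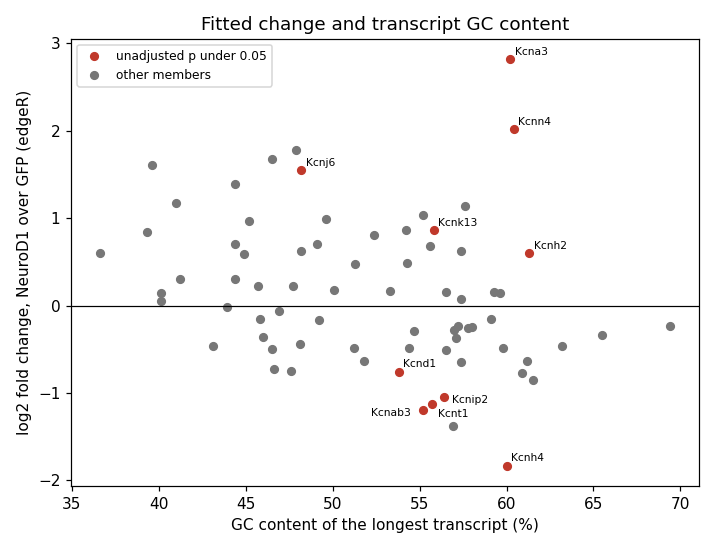
Fitted log2 fold change of NeuroD1 over GFP from edgeR (y axis) against the GC content of the longest transcript in percent (x axis) for 73 of the 77 members; red points, named, have an unadjusted p under 0.05. Lower values gather at high GC content, while Kcna3 and Kcnn4, at 60.2% and 60.4% GC, are the highest points of the plot.

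Genes that work with these channels were also read. On a list of 40 partners, which covers clustering proteins of Kv1 and Kv2 channels, Kv4 and BK subunits, KATP receptors, HCN channels, axonal anchors and potassium transporters, 37 were tested. Of these, 0 passed edgeR's adjusted threshold, while 5 were lower and 0 higher at an unadjusted p under 0.05 (against 11.5% and 12.5% of all genes), and the median log2 fold change was -0.01. Lrrc55, a BK gamma subunit, had 14.9, 14.0 and 10.8 CPM with GFP and 6.48, 6.39 and 6.37 CPM with NeuroD1 (2.06-fold lower, edgeR adjusted p = 0.136). Sptbn4, the spectrin that anchors channels at the axon initial segment, had 196, 194 and 229 against 95.5, 67.4 and 157 CPM (1.93-fold lower, edgeR adjusted p = 0.147). On the higher side were Vapa, which links Kv2 clusters to the endoplasmic reticulum (1.36-fold, edgeR adjusted p = 0.236), and the chloride and potassium importer Slc12a2 (1.43-fold, edgeR adjusted p = 0.244). Of the channels that the rule leaves out, the vascular KATP pore Kcnj8 had 10.9, 11.1 and 10.2 against 5.57, 6.87 and 7.99 CPM. Kcnj8 was 1.58-fold lower (edgeR adjusted p = 0.177), and the part of vessel cells in this value was not tested. The astrocyte channel Kcnj10 had 553, 325 and 254 against 390, 240 and 365 CPM (log2 fold change -0.19).

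NeuroD1 binds E-boxes, and the 250 bases before the RefSeq start sites (GRCm38) were searched on both strands for 3 nested forms in the 54 members with an entry. The general form CANNTG was found in 37 of them (68.5%), against 69.3% of 27025 genes. CAGATG was found in 7 (13.0% against 16.3%) and CAGCTG in 16 (29.6% against 14.7%). Among the 7 of these members with an unadjusted edgeR p under 0.05, 4 held CANNTG and 0 held CAGATG or CAGCTG. A match describes the letters of this window and is not evidence of binding.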

How the data were processed

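The values the authors deposited are raw counts of reads per gene symbol; per the file headers, featureCounts made them from an mm10 annotation. The submitters' processing notes list HISAT2 2.0.1, DESeq2 1.16.1 and GRCm38 and give no roles. The sources used here do not give the strand setting, the annotation release or how reads with several map positions were handled. Columns were matched to samples by the description in the labels. RNA came from cortex, 3 libraries per group. The main test was edgeR 4.0.16 (R 4.3.3), quasi-likelihood, with TMM scaling, filterByExpr (minimum count 10, minimum total 15; 14852 genes kept) and Benjamini-Hochberg adjustment over all tested genes. Standard errors come from the F statistic. Exact permutation of 3 against 3 libraries cannot give a two-sided p below 0.1. Alternatives were DESeq2 1.42.0, limma-voom (limma 3.58.1), other scalings and filters, a replicate block and leaving out each library. Offsets for exon length and GC content (natural splines, 4 degrees of freedom) were added after the data were seen. Pairs of libraries of 1 group differed by a chi-square of 33.8 to 126 for each gene, far above sampling noise, so none was treated as a duplicate. Coordinates, exon lengths and coding bases are from GENCODE M21 (GRCm38), which matched all 77 members. Exons of 28 members overlap another annotated gene, so some counts may be shared. Members, gene lists and tests were chosen with earlier results of these data known. Members given with full values were the 10 with the smallest p in each direction, the smallest in each class and the 5 microglia and macrophage channels. Kcna1, Kcna2 and other members were named outside this rule to account for each class. Some members that this rule covers are not reported here by name and are left out of the plots, but are included in the counts.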

Additional observations from a re-analysis of the deposited data

How the results depend on the processing

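Of all genes, 0 were called by edgeR, against 1355 by DESeq2 and 479 with a replicate block, and 0 to 1 with a library left out (1 without NeuroD1 replicate 2). Of the members, 0 were called by edgeR, 4 by DESeq2 and 5 with the replicate block (Kcnh4, Kcnab3, Kcnt1, Kcna3 and Kcnv1), and 0 whichever library was left out. The replicate numbers were not taken as pairs, because the labels state no pairing. Deviations of same-numbered libraries correlated at 0.539, 0.371 and 0.039 for replicates 1, 2 and 3. Libraries of unlike number correlated at -0.467 to 0.129, the highest being GFP replicate 3 with NeuroD1 replicate 2. Replicates 1 and 2 thus went with pairing and replicate 3 did not, and these values do not settle it. Members lower at an unadjusted p under 0.05 numbered 7, and 4 with length and GC offsets (3 to 11 with a library left out). Members higher numbered 5, and 12 with DESeq2, 10 with no filter, 16 with the replicate block and 8 with the offsets (3 to 20 with a library left out). Members below without overlap numbered 6 (6 to 16 with a library left out, the most without NeuroD1 replicate 3) and above 5 (5 to 24, the most without NeuroD1 replicate 2), or 3 above with the stricter filter. With a library left out, groups of 2 and 3 overlap less readily, and the share of all genes without overlap is not given there. Nor is a share of all genes given for the stricter filter, or for the members higher with DESeq2, no filter or the replicate block. These counts show how the values depend on the processing and are not read as results about the members. The median of the members lay between -0.18 and 0.24 with a library left out. Of the 24 members given with full values, directions turned in Kcne1l (from -0.86 to 0.03 with a library left out, the latter without NeuroD1 replicate 2, and 0.11 with the offsets) and Kcnj2 (-0.06 with the offsets). The cause of these changes was not tested. Members of few counts, such as Kcnq1, Kcnk9 and Kcnj15, have wide standard errors at this depth.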

Other observations

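Kcne2 and Kcnj13, channel genes known from the choroid plexus, were not alike. Kcne2 had 10, 16 and 6 counts in the GFP and 0, 3 and 5 counts in the NeuroD1 libraries. Kcnj13 had 3.14, 1.74 and 1.52 CPM with GFP and 1.58, 2.90 and 1.71 CPM with NeuroD1. The 5 choroid plexus markers on the list, which include Kcne2, summed to 34.2 to 810 CPM with GFP and 6.18 to 75.5 CPM with NeuroD1. The GFP value of 810 CPM was that of replicate 2.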
